A study of Takifugu obscurus with 9 samples.

Results

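Kidney RNA of the obscure puffer (Takifugu obscurus) sampled 48 h after poly(I:C) was compared with kidney RNA sampled 12 h after it. The comparison used 6 of the study's 9 libraries, chosen by their labelled time: 3 labelled poly(I:C) and 48 h, and 3 labelled poly(I:C) and 12 h. The remaining 3 libraries, labelled control and 0 h, entered only the shared estimate of the spread and are given beside some values. All 9 libraries were labelled as kidney of fish 3 months old. The labels used here give no strain, sex, dose or route, and do not say whether replicates were separate fish, pools or repeated preparations. P-values therefore measure only the spread between these libraries, which may be technical. The labels place no untreated fish at 12 h or 48 h, so the time since poly(I:C) and the time since handling cannot be told apart.

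Poly(I:C) is a synthetic double-stranded RNA that cells sense as they would a replicating virus, through Toll-like receptor 3 and the cytosolic RIG-I-like receptors. Sensing leads to secreted interferons, which act through JAK kinases and STAT factors on a large set of interferon-stimulated genes. Many of these encode proteins that block viral replication, present viral peptides or damp the signal again. The teleost kidney filters blood and reabsorbs solutes in its nephrons, and it is also the main blood-forming tissue of the fish, holding macrophages, granulocytes, lymphocytes and red cell precursors between the tubules. In bulk RNA such as this, fewer cells of a type and less message per cell cannot be told apart.

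The table held 46444 features, each a gene cluster of an assembly made without a genome, in TPM, a unit that corrects read numbers for feature length and for sequencing depth. Of these, 45473 reached 1 TPM in 3 or more libraries and were tested, and for 20873 of those the closest protein came from a fish species. Read counts were not used here. From the spacing of the lowest values, depth was estimated as 26600000 to 27000000 reads in the 48 h libraries and 26200000 to 28200000 in the 12 h libraries. In these libraries 1 read on a feature of 250 nt was worth 0.61 to 0.66 TPM. On features that short, levels under about 1 TPM rest on a few reads, and on longer features the same TPM rests on more reads. Kidney genes were present in all 6 libraries: the slit diaphragm gene nephrin (nphs1) had 24.4, 33.4 and 16.01 TPM in the 48 h libraries, against 4.79, 8.62 and 7.81 TPM in the 12 h libraries.

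The libraries were not equally independent in appearance. Among the 11329 features that averaged 10 TPM or more, the value of 12 h library 3 lay between those of 12 h libraries 1 and 2 in 70.4%. The same share was 14.2% and 15.2% for 12 h libraries 1 and 2, and 24.7% to 41.4% for the 48 h libraries. The calls rested heavily on that library. With all 9 libraries, 485 features were called higher and 278 lower at 48 h, and without 12 h library 3 the counts were 19 and 15, all 34 of them among the calls made with all libraries. Without 48 h library 2 they were 32 and 34, and without 12 h library 2 they were 65 and 47. Without 48 h library 3 they were 102 and 92, and without 48 h library 1 they were 170 and 100. Leaving out 0 h library 1 or 2 gave 239 and 155 or 221 and 146 calls. Leaving out 12 h library 1 gave 847 and 554, and leaving out 0 h library 3 gave 1665 and 784. On log2(TPM + 1), 0 h libraries 1 and 2 correlated at 0.985, the highest of any pair. Their correlations with 0 h library 3 were 0.857 and 0.864. Every fit without 0 h library 3, here and below, therefore takes the 0 h spread from that alike pair alone. What sets 12 h library 3 between its fellows was not tested.

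**Figure D1:**
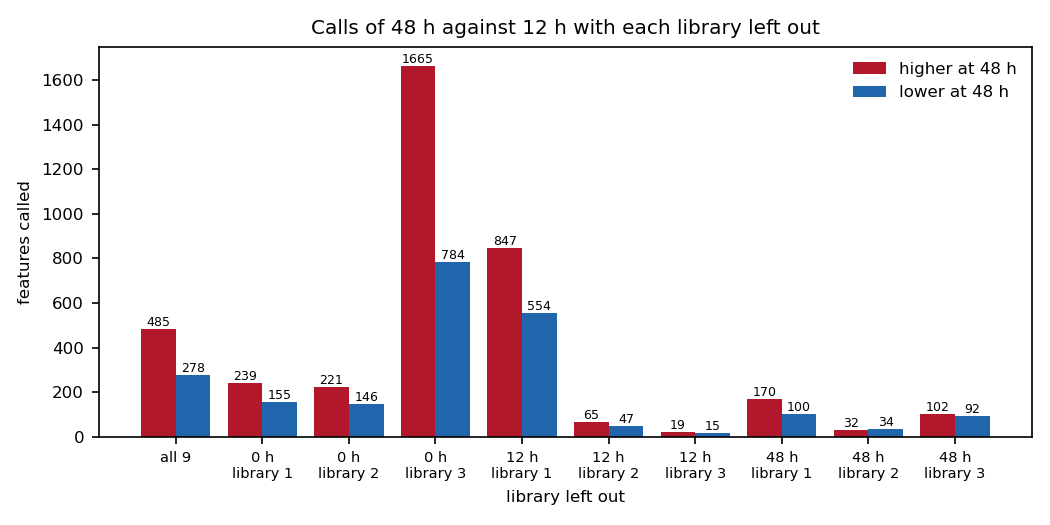
Number of features called higher (red) and lower (blue) at 48 h than at 12 h (y axis, limma adjusted p under 0.05) with all 9 libraries and with each library left out in turn (x axis). The bars fall to 19 and 15 without 12 h library 3 and reach 1665 and 784 without 0 h library 3.

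Across the whole table, more features were higher at 48 h than lower, and the largest changes were falls. In limma's moderated test on log2(TPM + 1), with Benjamini-Hochberg adjustment over all features and a threshold of 0.05, 485 features (1.07% of those tested) rose and 278 (0.611%) fell, 1.68% in either direction. Of the features called, 398 of the rises and 239 of the falls were at least 1 log2 unit, 78 and 93 were at least 2, and 10 and 18 were at least 3. The median rise was 1.44 and the median fall 1.72 log2 units. At an unadjusted p under 0.05 there were 7084 features higher and 2684 lower. The 48 h and 12 h libraries did not overlap in 20.5% of features in the higher direction and in 7.61% in the lower direction, so non-overlap alone is common here. The median of all log2 fold changes was 0.21, and after quantile normalization, which gives every library the same distribution of values, it was 0.04. Under quantile normalization 264 features rose and 358 fell, so that 42.4% of the calls were higher, against 63.6% in the deposited scaling. Changes below are in the deposited scaling and stand against that median of 0.21.

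A protein match in fish was found for 72.2% of the features that rose and 72.7% of those that fell, against 45.9% of all features tested. The called features without any protein match numbered 133 higher and 75 lower. Among rises, 35 features were listed at 0 in every 12 h library, and among falls 20 were listed at 0 in every 48 h library. One feature stood for each gene symbol when genes were counted, the one with the highest mean over all 9 libraries, which gave 11358 symbols. Of these, 229 (2.02%) rose and 97 (0.854%) fell, 2.87% in either direction, with a median log2 fold change of 0.20 (0.05 after quantile normalization). The libraries of the times did not overlap in 29.9% of symbols in the higher direction and 10.4% in the lower. At an unadjusted p under 0.05, 21.6% of symbols were higher and 7.43% lower, and 68.4% of estimates were above 0 and 31.6% below. These shares are the background for the counts of gene groups below.

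**Figure D2:**
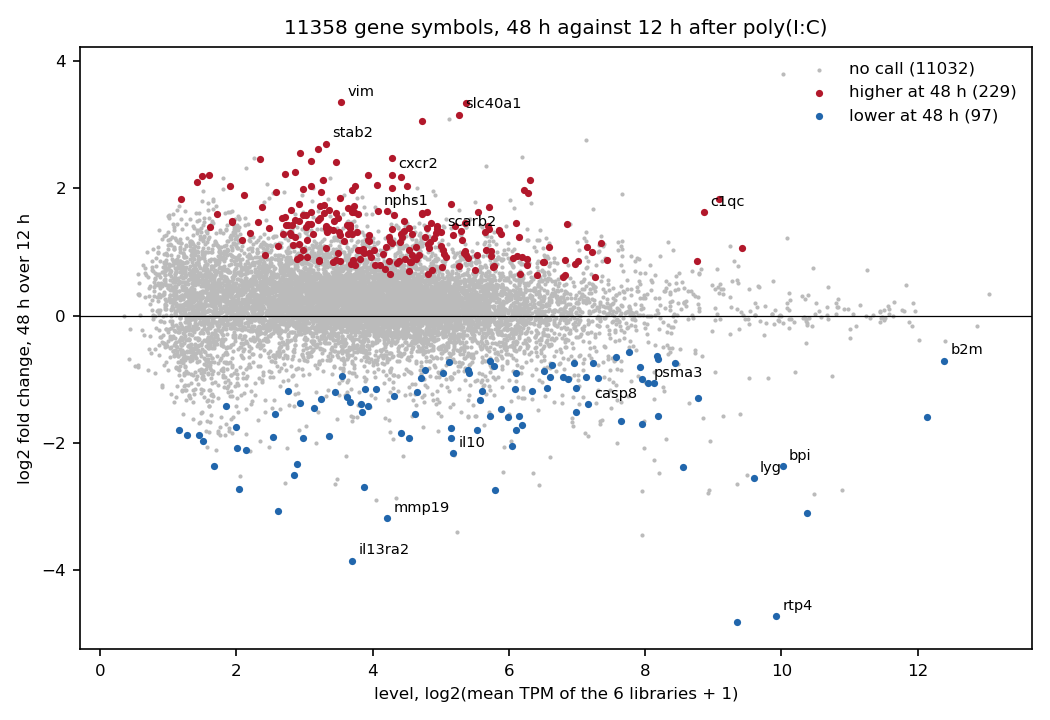
Log2 fold change of 48 h over 12 h (y axis) against level (x axis, log2 of the mean TPM of the 6 libraries + 1) for 11358 gene symbols, 1 point each. Red points rose (229) and blue points fell (97) at a limma adjusted p under 0.05. The falls reach high levels, with beta-2-microglobulin (b2m) at the far right.

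The deepest fall belonged to gimap7, a GTPase of the immunity-associated family found in lymphocytes. Its feature had 38.5, 42.5 and 39.8 TPM in the 48 h libraries, against 661, 1856 and 1256 TPM in the 12 h libraries. For gimap7 the log2 fold change was -4.81 ± 0.58 (SE) and the adjusted p 0.0102. The 48 h libraries were nearly equal to each other, while 12 h library 2 held more than the other 12 h libraries. The interferon-induced receptor-transporting protein gene rtp4, whose mammalian product has antiviral activity, had 24.4, 78.5 and 81.9 TPM in the 48 h libraries, against 502, 3252 and 1895 TPM in the 12 h libraries. For rtp4 the log2 fold change was -4.73 ± 0.74 (SE) and the adjusted p 0.0218. The feature of interferon-inducible GTPase 5, of the family of GTPases that act on intracellular pathogens in mammals, had 142, 331 and 342 TPM in the 48 h libraries, against 1226, 3493 and 2389 TPM in the 12 h libraries. For this GTPase the log2 fold change was -3.10 ± 0.64 (SE) and the adjusted p 0.0486. In both of these genes 48 h library 1 was the lowest of all and 12 h library 2 the highest.

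Several secreted or surface proteins of the immune system fell as deeply. The gene il13ra2, which in mammals encodes a decoy receptor that binds interleukin-13, had 1.32, 0.34 and 0.54 TPM in the 48 h libraries, against 22.4, 24.0 and 23.5 TPM in the 12 h libraries. For il13ra2 the log2 fold change was -3.85 ± 0.33 (SE) and the adjusted p 0.00285. The 12 h values were nearly equal and none of the 48 h values came near them. Interleukin-1 receptor accessory protein, the co-receptor through which interleukin-1 signals, had 6.12, 13.1 and 15.3 TPM at 48 h, against 76.7, 169.6 and 126 TPM at 12 h. For the accessory protein the log2 fold change was -3.33 ± 0.61 (SE) and the adjusted p 0.0328. The 2 features of that description together averaged 51.6 ± 12.5 TPM at 48 h and 163 ± 44.7 TPM at 12 h (SD, n = 3 each), without a call (log2 fold change -1.63, adjusted p = 0.0536). Galectin-3-binding protein A (lgals3bp), a secreted scavenger receptor protein, had 1.52, 52.6 and 28.5 TPM at 48 h, against 207, 533 and 383 TPM at 12 h. For lgals3bp the log2 fold change was -4.46 ± 0.92 (SE) and the adjusted p 0.0461. Its 48 h values ranged widely, with library 1 far under the other two. The plasma protein haptoglobin (hp), which binds free haemoglobin, had 0.12, 0.06 and 0 TPM at 48 h, against 2.15, 17.5 and 10.9 TPM at 12 h (log2 fold change -3.06 ± 0.58 SE, adjusted p = 0.0355), and no 48 h value was above 0.12 TPM.

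The other large falls were of mixed kinds. Matrix metalloproteinase-19 (mmp19), an enzyme that cuts extracellular matrix proteins, had 7.75, 1.49 and 1.13 TPM at 48 h, against 32.9, 30.9 and 31.4 TPM at 12 h. For mmp19 the log2 fold change was -3.19 ± 0.45 (SE) and the adjusted p 0.0165. Another feature, of endonuclease domain-containing 1 protein, had 3.43, 5.31 and 5.36 TPM at 48 h, against 56.2, 239 and 153 TPM at 12 h (log2 fold change -4.51 ± 0.43 SE, adjusted p = 0.00433), and its call held whichever library was left out. The 4 features of that description together averaged 10.98 ± 0.402 TPM at 48 h and 156 ± 92.5 TPM at 12 h (SD, n = 3 each), with a call (log2 fold change -3.51, adjusted p = 0.0051). The feature of armadillo-like helical domain containing protein 1 had 0, 0.84 and 0.74 TPM at 48 h, against 4.22, 43.9 and 23.6 TPM at 12 h (-3.605 log2 units, adjusted p = 0.0430). That of phytanoyl-CoA dioxygenase domain-containing protein 1 had 3.31, 2.04 and 0.29 TPM at 48 h, against 11.3, 47.6 and 26.6 TPM at 12 h (-3.31 log2 units, adjusted p = 0.0319). The 3 features of that description together averaged 52.4 ± 18.6 TPM at 48 h and 95.8 ± 24.4 TPM at 12 h (SD, n = 3 each), without a call (log2 fold change -0.89, adjusted p = 0.155). The feature of zinc finger protein 2 homolog was listed at 0 in all 48 h libraries, against 7.62, 5.54 and 9.20 TPM at 12 h (adjusted p = 0.0186). The 2 features of that description together averaged 4 ± 1.14 TPM at 48 h and 10.7 ± 2.35 TPM at 12 h (SD, n = 3 each), without a call (log2 fold change -1.24, adjusted p = 0.128). In all 12 of these falls the 48 h and 12 h libraries did not overlap, which the choice of members required.

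**Figure D3:**
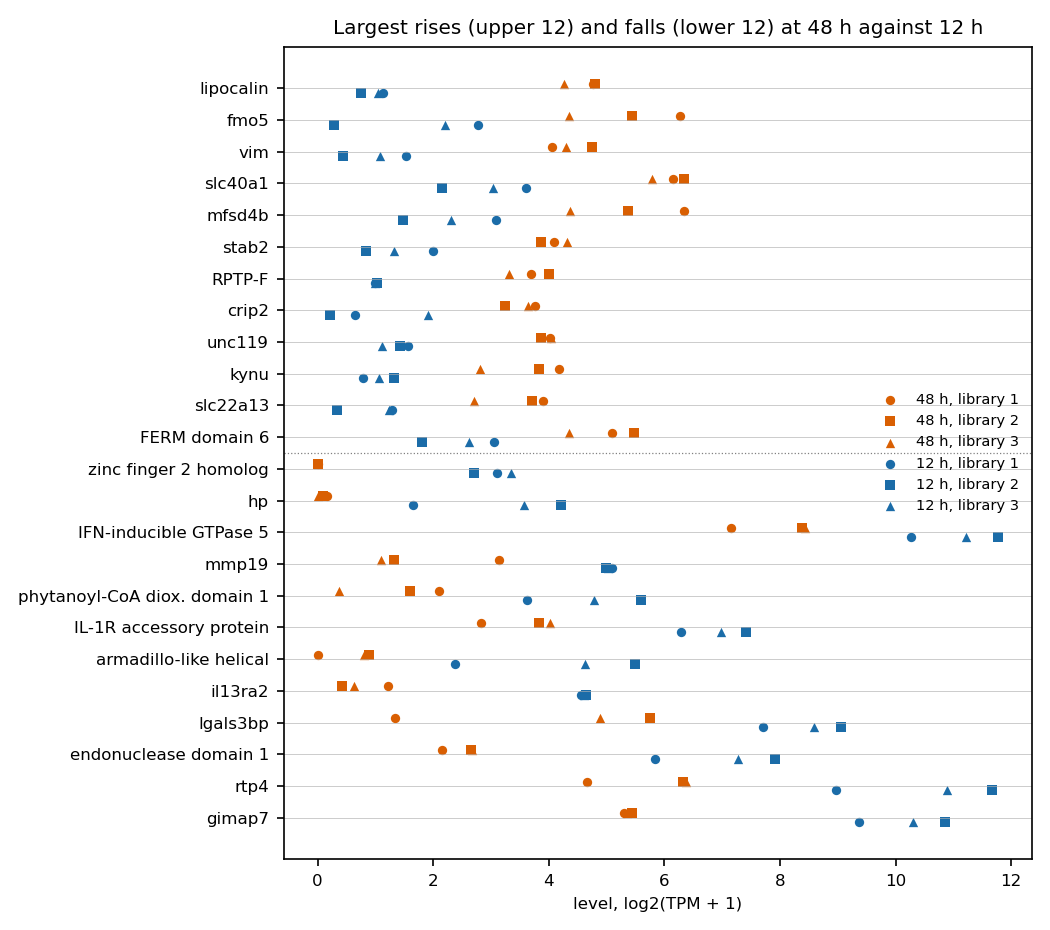
Level in each library (x axis, log2(TPM + 1)) of the 12 features with the largest rises (upper rows) and the 12 with the largest falls (lower rows) among named features called at 48 h (orange) against 12 h (blue), with a marker shape per library. The 48 h points sit to the right of the 12 h points in the upper rows and to the left in the lower rows. The falls gimap7 and rtp4 have 12 h values above 500 TPM.

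The largest rise was of a feature described as lipocalin, a small secreted carrier of hydrophobic molecules. It had 26.3, 26.9 and 18.3 TPM in the 48 h libraries, against 1.20, 0.68 and 1.05 TPM in the 12 h libraries (log2 fold change 3.64 ± 0.60 SE, adjusted p = 0.0243), and the groups were well separated. Its 0 h libraries stood at 10.1, 11.7 and 73.2 TPM, and the third was far above the other two. Vimentin (vim), the intermediate filament protein of mesenchymal cells and leukocytes, had 15.7, 25.9 and 18.6 TPM in the 48 h libraries, against 1.87, 0.36 and 1.11 TPM in the 12 h libraries. For vim the log2 fold change was 3.35 ± 0.31 (SE) and the adjusted p 0.00362. Its call held with every library left out in turn. A feature of dimethylaniline monooxygenase 5, a flavin enzyme that oxidises foreign compounds, had 76.3, 42.5 and 19.4 TPM at 48 h, against 5.86, 0.21 and 3.6 TPM at 12 h (log2 fold change 3.603 ± 0.62 SE, adjusted p = 0.0267), with widely spread values at both times. A more abundant feature of that description, picked once its values were known, had 92.9, 85.9 and 44.8 TPM at 48 h, against 9.98, 3.73 and 5.86 TPM at 12 h (log2 fold change 3.34, adjusted p = 0.00642). The 3 features of that description together averaged 137 ± 58.3 TPM at 48 h and 15.7 ± 8.02 TPM at 12 h (SD, n = 3 each), with a call (log2 fold change 3.07, adjusted p = 0.0091).

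Of the 12 largest rises, counting 1 feature per protein description, 3 were transporters. Ferroportin (slc40a1), the iron exporter of macrophages and epithelia, had 69.5, 80.1 and 54.0 TPM in the 48 h libraries, against 11.1, 3.44 and 7.21 TPM in the 12 h libraries (log2 fold change 3.16 ± 0.40 SE, adjusted p = 0.0114), while its 0 h libraries held 58.8, 57.6 and 129 TPM. The major facilitator superfamily domain-containing protein 4-B (mfsd4b), a sodium-dependent glucose transporter of the kidney in mammals, had 80.2, 40.1 and 19.5 TPM at 48 h, against 7.49, 1.77 and 3.96 TPM at 12 h. For mfsd4b the log2 fold change was 3.07 ± 0.58 (SE) and the adjusted p 0.0352. A feature of solute carrier family 22 member 13 (slc22a13), an organic anion transporter of the tubule in mammals, had 13.9, 12.1 and 5.55 TPM at 48 h, against 1.43, 0.26 and 1.36 TPM at 12 h. For slc22a13 the log2 fold change was 2.49 ± 0.36 (SE) and the adjusted p 0.0176. That description was carried by 17 features, of which 3 rose and none fell. Together they averaged 268 ± 91.8 TPM at 48 h and 145 ± 46.6 TPM at 12 h (SD, n = 3 each), without a call (log2 fold change 0.87, adjusted p = 0.141). In these genes 48 h library 3 was the lowest of its group, still above every 12 h library.

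Stabilin-2 (stab2), an endocytic scavenger receptor of sinusoidal endothelium and macrophages, had 15.98, 13.6 and 18.9 TPM in the 48 h libraries, against 2.98, 0.79 and 1.5 TPM in the 12 h libraries. For stab2 the log2 fold change was 2.70 ± 0.40 (SE) and the adjusted p 0.0176. One feature of receptor-type tyrosine-protein phosphatase F, a cell-adhesion phosphatase, had 11.97, 14.9 and 8.94 TPM at 48 h, against 1, 1.04 and 0.99 TPM at 12 h. For this phosphatase the log2 fold change was 2.66 ± 0.23 (SE) and the adjusted p 0.00289. The 12 h values of this feature were almost identical, and the call held with every library left out. That description was shared by 19 features. Their summed TPM had no call (log2 fold change -0.93, adjusted p = 0.109), so the rise is that of 1 feature and not of the whole description. Kynureninase (kynu), an enzyme of tryptophan breakdown, had 17.2, 13.2 and 5.99 TPM at 48 h, against 0.73, 1.5 and 1.09 TPM at 12 h. For kynu the log2 fold change was 2.55 ± 0.39 (SE) and the adjusted p 0.0205. Cysteine-rich protein 2 (crip2) had 12.5, 8.49 and 11.5 TPM at 48 h, against 0.57, 0.16 and 2.75 TPM at 12 h. The trafficking protein unc-119 homolog A (unc119) had 15.3, 13.6 and 15.5 TPM at 48 h, against 1.94, 1.69 and 1.16 TPM at 12 h. FERM domain-containing protein 6 had 33.2, 43.2 and 19.4 TPM at 48 h, against 7.29, 2.51 and 5.12 TPM at 12 h. Each of these 3 passed the test (adjusted p = 0.0328, 0.0490 and 0.0225) and none overlapped between times. In all 12 of the largest rises the choice of members required both.

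Few interferon-stimulated effectors passed the test, and nearly all estimates were below 0. Of 43 genes measured, 8 fell and none rose, against 0.854% of all symbols that fell. The median log2 fold change was -1.27 (-1.23 after quantile normalization), 41 of the 43 estimates were below 0, against 31.6% of all symbols, and 33 genes had 48 h libraries entirely under the 12 h libraries, against 10.4% of all symbols. The summed level of the list was 2836 to 6794 TPM in the 48 h libraries and 12978 to 24620.0 TPM in the 12 h libraries, and 5077 to 14194 TPM in the 0 h libraries. Within 48 h, library 1 held the least of the list: its mean level was 5.33 log2 units, against 6.35 and 6.31 in libraries 2 and 3, and the 12 h libraries stood at 6.98, 7.63 and 7.37. Counted by feature, 4 of the 11 features described as interferon-induced protein 44 fell and none rose, a description picked once its values were known. Among all features tested, 0.611% fell. Of the 8 calls among the 43 genes, none remained without 12 h library 2, 12 h library 3 or 48 h library 2, each left out alone. Without 48 h library 1 or 3, 2 and 1 genes fell, and 22 genes fell when 0 h library 3 was left out.

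The members that fell are known for different steps of the response. Besides rtp4, they were the peptide transporter tap1, the immunoproteasome subunit psmb9 and the large ubiquitin ligase rnf213a. The others were the ADP-ribosyltransferase parp14, a feature with the symbol of the ubiquitin ligase dtx3l and an uncharacterized protein description, the ectoenzyme cd38 and ifi35. The gene tap1 had 24.4, 32.2 and 32.9 TPM at 48 h, against 65.8, 123.2 and 94.8 TPM at 12 h. For tap1 the log2 fold change was -1.600 ± 0.27 (SE) and the adjusted p 0.0259. The gene rnf213a had 109, 140.0 and 196 TPM at 48 h, against 392, 481 and 433 TPM at 12 h (log2 fold change -1.58 ± 0.26 SE, adjusted p = 0.0243), and parp14 had 115, 85.0 and 119.8 TPM at 48 h, against 219, 203 and 203 TPM at 12 h. For parp14 the log2 fold change was -0.98 ± 0.16 (SE) and the adjusted p 0.0226. In parp14 and cd38 the 48 h libraries were close to each other or had library 1 highest, unlike rtp4: cd38 had 378, 189 and 213 TPM at 48 h, against 676, 554 and 602 TPM at 12 h (adjusted p = 0.0409). The genes dtx3l and ifi35 differed by -1.46 and -0.96 log2 units (adjusted p = 0.0359 and 0.0308).

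Some well-known effectors had larger differences than most of these members and did not pass. The 3 given here were chosen after their values were seen. The HECT-type ubiquitin ligase herc6, which attaches the ubiquitin-like protein ISG15 in mouse, had 44.7, 283 and 305 TPM at 48 h, against 558, 1597 and 1099 TPM at 12 h. For herc6 the log2 fold change was -2.65 ± 0.80 (SE) and the adjusted p 0.109. The GTPase mx1, which traps viral nucleocapsids in mammals, had 146, 887 and 729.6 TPM at 48 h, against 2066, 4279 and 3213 TPM at 12 h. For mx1 the log2 fold change was -2.74 ± 0.63 (SE) and the adjusted p 0.0588. The RNA-binding regulator dhx58 had 34.9, 191 and 197 TPM at 48 h, against 459, 1195 and 814 TPM at 12 h. For dhx58 the log2 fold change was -2.79 ± 0.85 (SE) and the adjusted p 0.110. In all 3 genes the times did not overlap, and 48 h library 1 was the lowest library of all.

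Genes upstream of the effectors gave few calls. Among all symbols, 2.02% rose and 0.854% fell. Among 26 genes of RNA sensing and signalling, 1 rose and none fell: tlr5, a receptor for bacterial flagellin, had 15.99, 17.5 and 17.4 TPM at 48 h, against 6.88, 4.28 and 6.24 TPM at 12 h. For tlr5 the log2 fold change was 1.42 ± 0.21 (SE) and the adjusted p 0.0173. The ubiquitin ligase trim25 and the cytosolic RNA sensor ifih1 had log2 fold changes of -1.94 and -1.84 without passing (adjusted p = 0.0730 and 0.0973). Among 25 genes of JAK-STAT signalling and its SOCS inhibitors none was called, and a feature with the symbol of the interferon receptor chain ifnar2, whose protein description is instead interleukin-20 receptor subunit alpha, and the kinase jak1 had log2 fold changes of -1.35 and -1.17 (adjusted p = 0.0795 and 0.0741). Of these 25 genes, 2 were higher and 7 lower at an unadjusted p under 0.05. The shares of all symbols at that p were 21.6% and 7.43%. Among 9 interferon regulatory factors none was called either, with 2 higher and 3 lower at an unadjusted p under 0.05 and a median of -0.78. The factor irf4 had 17.1, 37.8 and 44.7 TPM at 48 h, against 70.8, 112 and 97.2 TPM at 12 h (adjusted p = 0.119).

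MHC class I presentation, by which cells display peptides from inside the cell to cytotoxic T cells, fell at 48 h in 6 genes. Of 12 genes measured, 6 fell and none rose, against 0.854% of all symbols that fell. In 10 of them the 48 h libraries lay entirely under the 12 h libraries, against 10.4% of all symbols. The light chain beta-2-microglobulin (b2m) had 4024, 4203 and 3988 TPM in the 48 h libraries, against 6338, 6991 and 6626 TPM in the 12 h libraries. For b2m the log2 fold change was -0.71 ± 0.11 (SE) and the adjusted p 0.0205. The 3 libraries of each time were close to each other in this abundant gene. The proteasome activator psme1 had 181.2, 174 and 185 TPM at 48 h, against 306, 445 and 389 TPM at 12 h (log2 fold change -1.06 ± 0.17 SE, adjusted p = 0.0240), and the immunoproteasome subunits psmb8 and psmb9 differed by -0.68 and -0.80 log2 units (adjusted p = 0.0318 and 0.0425). The feature with the symbol of the peptide-loading factor tapasin (tapbp), described as tapasin-related protein, had 24.1, 30.8 and 32.1 TPM at 48 h, against 43.0, 61.7 and 55.7 TPM at 12 h (adjusted p = 0.0446). A class I heavy chain feature without a symbol, picked once its values were known, averaged 3893 ± 408 TPM at 48 h and 6569 ± 945 TPM at 12 h (SD, n = 3 each) and also fell (adjusted p = 0.0307). The summed level of the list was 5357 to 5571 TPM in the 48 h libraries and 8318 to 9202 TPM in the 12 h libraries, and 6278 to 6820.0 TPM in the 0 h libraries. No call of this list remained without 12 h library 2, 12 h library 3 or any 1 of the 48 h libraries, each left out alone. Of the 12 genes of MHC class II presentation none was called, and the median was -0.02. At an unadjusted p under 0.05, 2 of them were higher and 1 lower, against 21.6% and 7.43% of all symbols.

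Proteasome genes, whose products degrade ubiquitin-tagged proteins, fell by modest amounts in 7 members. Of 36 genes, 7 fell and none rose, against 0.854% of all symbols that fell. In 28 of them the 48 h libraries lay entirely under the 12 h libraries, against 10.4% of all symbols, and the median was -0.42. The core subunit psma3 had 172, 166 and 172 TPM at 48 h, against 339, 369 and 355 TPM at 12 h (log2 fold change -1.06 ± 0.16 SE, adjusted p = 0.0195), and the regulatory subunit psmd8 had 67.5, 59.98 and 65.0 TPM at 48 h, against 116, 119 and 118 TPM at 12 h. For psmd8 the log2 fold change was -0.87 ± 0.12 (SE) and the adjusted p 0.0159. The core subunits psmb3, psma5, psma7 and psma1 differed by -0.75, -0.75, -0.64 and -0.57 log2 units, and the assembly chaperone psmg2 by -0.73 (adjusted p between 0.0262 and 0.0459). The summed level was 3780.0 to 4242 TPM in the 48 h libraries and 5480.0 to 5750.0 TPM in the 12 h libraries, and 3204 to 3460.0 TPM in the 0 h libraries. Counted over all features that the table assigns to the KEGG proteasome pathway, 12 of 58 fell and none rose, which was 20.7%, against 1.11% of the 7766 features with a fish match and a pathway. This was the largest share of falls among the 141 pathways with at least 20 features. A polyubiquitin-B feature, picked likewise and a source of ubiquitin itself, averaged 6563 ± 931 TPM at 48 h and 11996 ± 1667 TPM at 12 h (SD, n = 3 each) and fell (adjusted p = 0.0330). None of the 7 calls remained without 12 h library 2, 12 h library 3, 48 h library 2 or 48 h library 3, each left out alone.

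Cytokines, chemokines and their receptors moved in both directions. Of 38 genes, 2 rose and 3 fell, against 2.02% and 0.854% of all symbols. Interleukin-10 (il10), a cytokine that limits inflammation, had 7.39, 14.2 and 15.2 TPM at 48 h, against 38.9, 76.2 and 59.3 TPM at 12 h (log2 fold change -2.16 ± 0.35 SE, adjusted p = 0.0225), and the homing receptor ccr7 of lymphocytes and dendritic cells had 8.16, 7.91 and 8.14 TPM at 48 h, against 24.8, 14.7 and 19.3 TPM at 12 h. For ccr7 the log2 fold change was -1.15 ± 0.19 (SE) and the adjusted p 0.0248. The chemokine receptor cxcr2, by which neutrophils follow interleukin-8, had 24.6, 37.1 and 31.2 TPM at 48 h, against 7.44, 4.60 and 5.66 TPM at 12 h (log2 fold change 2.21 ± 0.23 SE, adjusted p = 0.00541), and its call held with every library left out. In the same comparison a feature described as interleukin-8 (cxcl8), a ligand of that receptor in mammals, had 57.2, 65.4 and 118 TPM at 48 h, against 31.8, 44.5 and 39.9 TPM at 12 h (adjusted p = 0.209). A second feature of that description, picked once its values were known, had 14.1, 18.4 and 15.5 TPM at 48 h, against 36.8, 49.7 and 44.2 TPM at 12 h (log2 fold change -1.39 ± 0.17 SE, adjusted p = 0.0105). The called interleukin-8 feature thus fell while the other was higher without passing, and the receptor rose. The receptor csf1r of macrophage colony-stimulating factor had 35.3, 44.8 and 46.8 TPM at 48 h, against 19.3, 12.6 and 18.1 TPM at 12 h. For csf1r the log2 fold change was 1.30 ± 0.26 (SE) and the adjusted p 0.0424.

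The wider KEGG set of cytokine and receptor features gave 8 rises (3.62%) and 11 falls (4.98%) among 221. The shares over all features with a fish match and a pathway were 2.19% and 1.11%. The members described here were chosen after their values were seen. The falls included receptors through which T and NK cells take signals from myeloid cells: of 2 features described as interleukin-12 receptor beta-2, the higher had 44.2, 57.2 and 80.7 TPM at 48 h, against 137, 218 and 169 TPM at 12 h (adjusted p = 0.0202). Interleukin-12 receptor beta-1 and the alpha chain of the interleukin-15 receptor fell by 1.27 and 1.05 log2 units (adjusted p = 0.0425 and 0.0243). The rises included a feature described as the granulocyte colony-stimulating factor receptor, with 37.0, 88.8 and 73.2 TPM at 48 h, against 18.2, 27 and 22.02 TPM at 12 h (adjusted p = 0.0413), and a chemokine receptor of the CXCR3 type (cxcr3.2), with 35.7, 32.8 and 36.2 TPM at 48 h, against 14.2, 4.01 and 7.80 TPM at 12 h (adjusted p = 0.0222). They also included the leptin receptor (lepr), at 1.13 log2 units (adjusted p = 0.0450).

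Some antimicrobial genes fell at 48 h. In the list of acute phase, iron and antimicrobial genes, 3 of 16 fell and 1 rose, against 0.854% and 2.02% of all symbols. Lysozyme g (lyg), which cleaves bacterial cell walls, had 183, 214 and 208 TPM in the 48 h libraries, against 601, 2076 and 1345 TPM in the 12 h libraries. For lyg the log2 fold change was -2.56 ± 0.47 (SE) and the adjusted p 0.0328. Bactericidal permeability-increasing protein (bpi), which binds bacterial lipopolysaccharide, had 244, 371 and 353 TPM at 48 h, against 1007, 2478 and 1774 TPM at 12 h. For bpi the log2 fold change was -2.37 ± 0.30 (SE) and the adjusted p 0.0117. The third fall was haptoglobin and the rise was ferroportin, both given above. In lyg and bpi the 48 h libraries were tight and 12 h library 2 was the highest. The 0 h libraries of lyg held 537, 537 and 198 TPM.

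Several macrophage markers rose at 48 h. Of 24 markers of monocytes, macrophages and dendritic cells found among 31 listed, 5 rose and none fell, against 2.02% of all symbols that rose. The mannose receptor mrc1 had 92.3, 87.9 and 103 TPM at 48 h, against 47.7, 47.6 and 53.3 TPM at 12 h. For mrc1 the log2 fold change was 0.91 ± 0.13 (SE) and the adjusted p 0.0150. The 11 features of that description together averaged 611 ± 41.9 TPM at 48 h and 228 ± 144 TPM at 12 h (SD, n = 3 each), without a call (log2 fold change 1.65, adjusted p = 0.0533). The complement component c1qc, made by tissue macrophages in mammals, had 698, 666 and 702 TPM at 48 h, against 370.3, 125 and 237 TPM at 12 h. For c1qc the log2 fold change was 1.63 ± 0.33 (SE) and the adjusted p 0.0447. The other rises were stab2, slc40a1 and csf1r. The companions c1qb and stab1 (c1qb and spi1 were picked once their values were known) had log2 fold changes of 1.22 and 1.89 without passing (adjusted p = 0.0619 and 0.0695), and the general myeloid factor spi1 had 146, 232 and 183 TPM at 48 h, against 175, 160.4 and 172 TPM at 12 h (log2 fold change 0.12). The median was 0.52. The summed level was 4531 to 4993 TPM in the 48 h libraries and 2507 to 3512 TPM in the 12 h libraries, and 3957 to 5465 TPM in the 0 h libraries, so the 48 h and 12 h ranges did not overlap. No marker of the list was at 0 in any of the 6 libraries. None of the 5 calls remained without 12 h library 3 or 48 h library 2, each left out alone. Of 15 neutrophil markers 1 rose, cxcr2, and the summed ranges overlapped, at 5503 to 7680.0 TPM in the 48 h libraries and 5192 to 7080.0 TPM in the 12 h libraries. The granulocyte colony-stimulating factor receptor feature that rose, given above, carried no symbol and was not counted among these markers.

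Lymphocyte markers did not move together. Of 29 T and NK cell markers, 3 fell and none rose, against 0.854% of all symbols that fell, while the median log2 fold change was 0.55. The falls were the co-stimulatory receptor cd28, with 26.1, 33.1 and 38.0 TPM at 48 h, against 73.9, 150 and 111 TPM at 12 h (log2 fold change -1.71 ± 0.26 SE, adjusted p = 0.0205), the transcription factor tcf7, with 13.3, 13.7 and 15.7 TPM at 48 h, against 27.7, 38.3 and 36.4 TPM at 12 h (log2 fold change -1.20 ± 0.16 SE, adjusted p = 0.0133), and ccr7. Most of the list went the other way without a call. In 17 of the 29 markers the 48 h libraries lay entirely above the 12 h libraries and in 5 entirely below, against 29.9% and 10.4% of all symbols. Estimates were above 0 in 21 markers, against 68.4% of all symbols. The T cell receptor component cd3e, chosen after its values were seen, had 68.4, 76.0 and 70.1 TPM at 48 h, against 58.2, 15.5 and 33.4 TPM at 12 h. For cd3e the log2 fold change was 1.17 ± 0.70 (SE) and the adjusted p 0.362. The summed level of the list was 1101 to 1206 TPM in the 48 h libraries and 753 to 1070.0 TPM in the 12 h libraries, and the feature with the symbol of the cytotoxic marker gzma, described as granzyme K, was at 0 in at least 1 library. Of 17 B and plasma cell markers none was called, with 2 higher and 3 lower at an unadjusted p under 0.05. The antigen receptor chain cd79a had 21.5, 17.4 and 16.03 TPM at 48 h, against 40.7, 29.8 and 32.2 TPM at 12 h (log2 fold change -0.87 ± 0.20 SE, adjusted p = 0.0607), and the signalling kinase btk had 45.9, 54.6 and 61.1 TPM at 48 h, against 38.7, 32.0 and 33.0 TPM at 12 h. For btk the log2 fold change was 0.62 ± 0.15 (SE) and the adjusted p 0.0662. Of 12 thrombocyte markers none was called, with 1 higher and 1 lower at an unadjusted p under 0.05. In both of these lists the share higher at that p was under the 21.6% of all symbols. Thrombocyte estimates were above 0 in 11 of 12 genes, against 68.4% of all symbols, with a median of 0.37. B and plasma cell estimates were above 0 in 8 of 17, with a median of -0.05.

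Some podocyte markers rose at 48 h. Of 21 markers of podocytes and glomerulus found among 27 listed, 3 rose and none fell, against 2.02% of all symbols that rose. The median was 0.76. Nephrin (nphs1), given above, rose by 1.64 log2 units (adjusted p = 0.0290). Podocalyxin (podxl), which coats the podocyte surface, had 51.4, 46.2 and 20.9 TPM at 48 h, against 14.7, 8.93 and 11.04 TPM at 12 h (log2 fold change 1.62 ± 0.31 SE, adjusted p = 0.0375), and its 0 h libraries held 44.6, 37.6 and 39.0 TPM. The transcription factor dach1 had 9.56, 11.9 and 6.32 TPM at 48 h, against 3.91, 2.06 and 2.44 TPM at 12 h. For dach1 the log2 fold change was 1.42 ± 0.26 (SE) and the adjusted p 0.0328. In all 3 genes 48 h library 3 was the lowest of its group and still above the 12 h libraries. The summed level of the list was 283 to 427 TPM in the 48 h libraries and 188 to 202 TPM in the 12 h libraries, and 319 to 358 TPM in the 0 h libraries. The markers plce1 and ptpro were at 0 in at least 1 library. No call of the list remained without 0 h library 2, 12 h library 2 or 3, or 48 h library 1 or 2, each left out alone. None was made after quantile normalization.

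Tubule markers were uneven, and their calls were no more frequent than the 2.02% of all symbols that rose would lead to in lists of this size. Of 42 proximal tubule markers, 1 rose: fructose-1,6-bisphosphatase (fbp1), an enzyme of glucose synthesis, with 209, 192 and 186 TPM at 48 h, against 131, 74.5 and 94.9 TPM at 12 h. For fbp1 the log2 fold change was 0.998 ± 0.19 (SE) and the adjusted p 0.0378. The slc22a13 feature that rose, given above, was not counted here, because a more abundant feature stood for that symbol and was not called. The inositol transporter slc5a11 and the amino acid transporter slc6a18 had log2 fold changes of 1.87 and 1.21 without passing (adjusted p = 0.0643 and 0.0570). The mean level of the list was 4.50, 4.61 and 3.87 log2 units in the 48 h libraries, against 4.17, 3.76 and 4.02 in the 12 h libraries, so 48 h library 3 stood with the 12 h libraries. Among 21 markers of distal tubule and collecting duct none was called, with 4 higher and 2 lower at an unadjusted p under 0.05. The shares of all symbols at that p were 21.6% and 7.43%. Estimates were below 0 in 15 of the 21 genes, against 31.6% of all symbols, and the median was -0.12. Uromodulin (umod), a secreted protein of the thick ascending limb in mammals, had 14.6, 3.34 and 2.22 TPM at 48 h, against 38.1, 96.8 and 65.2 TPM at 12 h. For umod the log2 fold change was -3.39 ± 0.85 (SE) and the adjusted p 0.0732. Of 9 markers of interrenal and chromaffin cells, the steroid and catecholamine cells embedded in fish kidney, none was called, with 2 higher and 1 lower at an unadjusted p under 0.05.

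Matrix, vessel and other tissue markers gave a few rises, against 2.02% of all symbols that rose. In the extracellular matrix list of 37 genes 3 rose and none fell. Vimentin was counted there, but it is an intermediate filament protein and not a matrix protein. The other rises were nidogen-2 (nid2), a basement membrane linker, with 19.3, 18.6 and 14.8 TPM at 48 h, against 7.97, 8.77 and 7.47 TPM at 12 h (log2 fold change 1.03 ± 0.16 SE, adjusted p = 0.0187), and the collagen chain col6a2, with 25.4, 31.1 and 28.2 TPM at 48 h, against 15.2, 9.48 and 12.2 TPM at 12 h. For col6a2 the log2 fold change was 1.16 ± 0.22 (SE) and the adjusted p 0.0355. Outside the list, and picked once their values were known, 4 of 11 features described as hemicentin-1 and 3 of 12 described as collagen alpha-1(XII) chain fell, and none of either rose. Among all features tested, 0.611% fell. Of 21 endothelial markers 1 rose, stab2, and the growth factor receptor flt4 had 8.65, 8.23 and 9.71 TPM at 48 h, against 4.74, 3.38 and 4.48 TPM at 12 h. For flt4 the log2 fold change was 0.93 ± 0.29 (SE) and the adjusted p 0.113. Of 23 muscle markers 1 rose, the actin actc1, with 174, 207 and 124 TPM at 48 h, against 74.0, 47.6 and 60.7 TPM at 12 h (log2 fold change 1.45 ± 0.22 SE, adjusted p = 0.0205), and of 21 liver and gut markers 1 rose, bile salt-activated lipase (cel), with 12.3, 16.7 and 12.4 TPM at 48 h, against 3.48, 4.21 and 3.79 TPM at 12 h. For cel the log2 fold change was 1.605 ± 0.18 (SE) and the adjusted p 0.00743. The 4 features of that description together averaged 19.1 ± 4.64 TPM at 48 h and 9 ± 0.419 TPM at 12 h (SD, n = 3 each), with a call (log2 fold change 0.98, adjusted p = 0.0335). The summed muscle markers were 312 to 512 TPM in the 48 h libraries and 198 to 267 TPM in the 12 h libraries, with 5 of them (casq1, ckm, myl1, ryr1 and tnnt3) at 0 in at least 1 library.

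**Figure D4:**
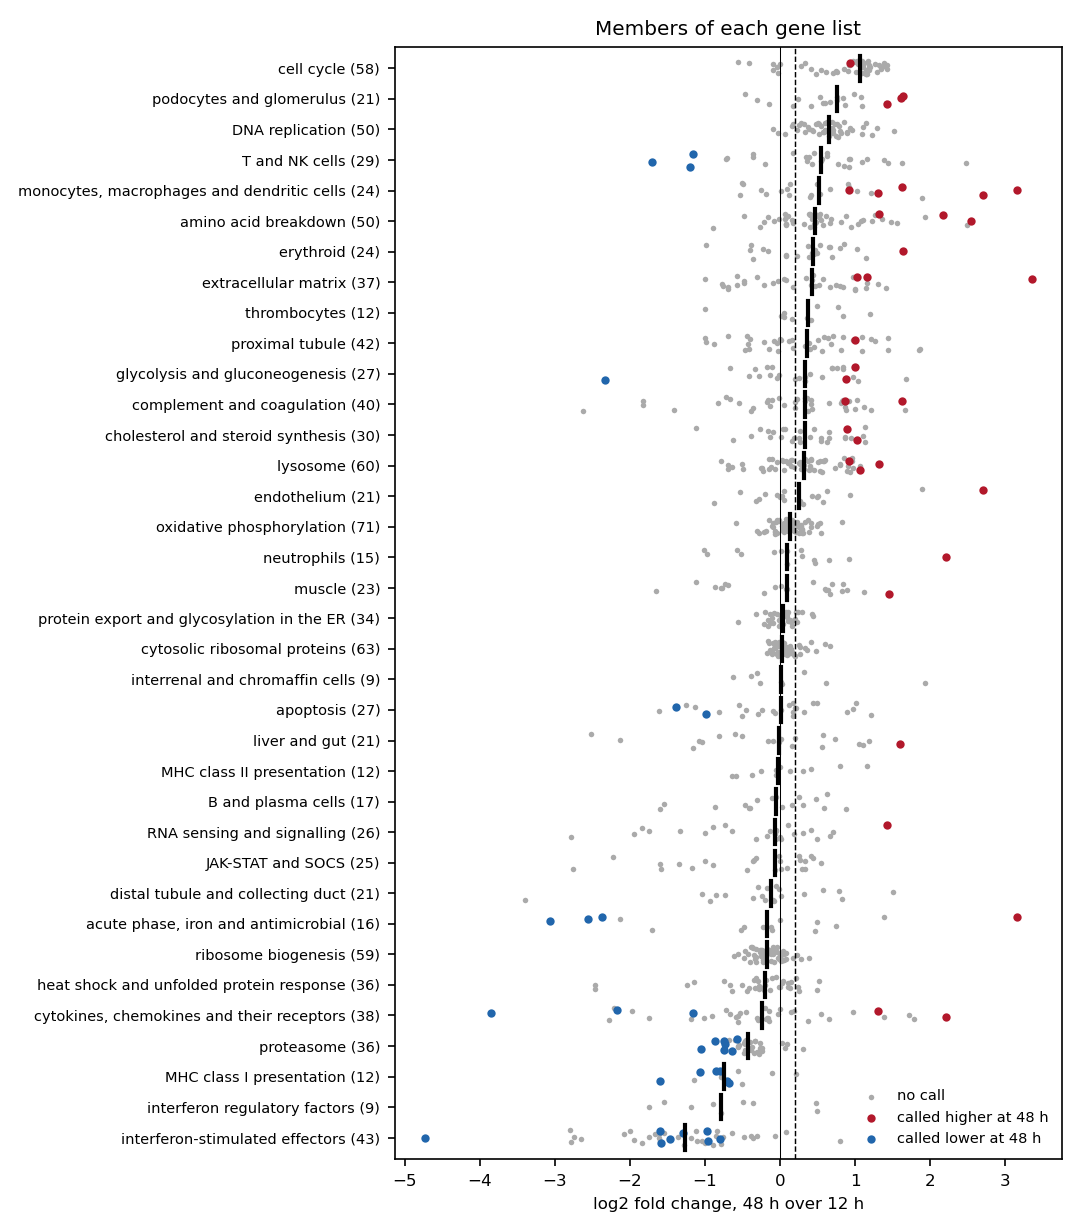
Log2 fold change of 48 h over 12 h (x axis) of every measured member of 36 gene lists (rows, with the number of members), 1 point each, red where called higher and blue where called lower. Black bars mark list medians and the dashed line the median of all symbols, 0.20. The interferon-stimulated effectors lie lowest, with a median of -1.27, and the cell cycle highest, with a median of 1.06.

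Of 50 enzymes that break down amino acids, 3 rose and none fell, against 2.02% of all symbols that rose. Besides kynureninase, these were aldh4a1, which completes proline breakdown, with 88.6, 67.1 and 57.8 TPM at 48 h, against 29.4, 27.6 and 25.8 TPM at 12 h (log2 fold change 1.31 ± 0.19 SE, adjusted p = 0.0170), and fumarylacetoacetase (fah), the last enzyme of tyrosine breakdown, with 46.5, 34.9 and 19.5 TPM at 48 h, against 10.6, 2.72 and 7.81 TPM at 12 h. For fah the log2 fold change was 2.17 ± 0.44 (SE) and the adjusted p 0.0439. The median was 0.46, and 21 genes were higher and 1 lower at an unadjusted p under 0.05, against 21.6% and 7.43% of all symbols. The summed level was 1925 to 3161 TPM in the 48 h libraries and 1388 to 2211 TPM in the 12 h libraries, and 2503 to 4924 TPM in the 0 h libraries. The enzyme fah also had a wide 48 h spread, with library 3 lowest.

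Sugar pathways held several rises. Among all symbols, 2.02% rose and 0.854% fell. In the glycolysis and gluconeogenesis list 2 of 27 genes rose and 1 fell: fbp1 and the glucose transporter slc2a1 (11.9, 16.3 and 11.98 TPM at 48 h, against 6.97, 6.88 and 6.48 TPM at 12 h, adjusted p = 0.0344) against glucokinase (gck), with 3.56, 0.87 and 0.60 TPM at 48 h, against 8.85, 13.8 and 10.96 TPM at 12 h. For gck the log2 fold change was -2.33 ± 0.42 (SE) and the adjusted p 0.0312. The 2 features of that description together averaged 113 ± 32.7 TPM at 48 h and 194 ± 80.8 TPM at 12 h (SD, n = 3 each), without a call (log2 fold change -0.73, adjusted p = 0.250). For slc2a1, the 3 features of its description together averaged 84.0 ± 24.1 TPM at 48 h and 71.5 ± 8.88 TPM at 12 h (SD, n = 3 each), without a call (log2 fold change 0.19, adjusted p = 0.546). The KEGG fructose and mannose pathway had 6 rises and no fall among 59 features, a share of 10.2%, against 2.19% of the features with a fish match and a pathway. This pathway was picked once its values were known. Among the 141 pathways with at least 20 features, only fatty acid biosynthesis had a larger share of rises, at 10.3%. The members that rose, chosen after their values were seen, were fbp1, 2 aldose reductase features (akr1b1), hexokinase-1 (hk1), phosphomannomutase 1 (pmm1) and a TIGAR-type bisphosphatase (tigara). The hexokinase-1 feature that rose, whose product phosphorylates glucose on entry, had 28.2, 36.9 and 32.2 TPM at 48 h, against 17.01, 6.62 and 11.04 TPM at 12 h (adjusted p = 0.0327). The more abundant hk1 feature, which stands for the symbol in the glycolysis list, had 33.9, 43.4 and 41.7 TPM at 48 h, against 42.8, 45.8 and 44.9 TPM at 12 h (adjusted p = 0.510). The rise was therefore that of 1 of these hk1 features. Phosphomannomutase 1 (pmm1) had 16.4, 17.2 and 10.4 TPM at 48 h, against 4.02, 1.72 and 2.17 TPM at 12 h (adjusted p = 0.0105).

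Lipid and lysosomal genes rose in small numbers, against 2.02% of all symbols that rose. Of 30 genes of cholesterol and steroid synthesis 2 rose: phosphomevalonate kinase (pmvk), with 28.7, 31.1 and 29.7 TPM at 48 h, against 18.02, 11.4 and 13.9 TPM at 12 h (log2 fold change 1.02 ± 0.17 SE, adjusted p = 0.0248), and a feature carrying the fatty acid synthase symbol (fasn) but no named protein description, at 0.89 log2 units (adjusted p = 0.0413). The fasn feature was counted there, but fatty acid synthase makes fatty acids and not cholesterol or steroids. Of 60 lysosomal genes 3 rose: the membrane protein scarb2, with 39.9, 46.1 and 48.1 TPM at 48 h, against 18.8, 16.3 and 17.1 TPM at 12 h (log2 fold change 1.31 ± 0.14 SE, adjusted p = 0.00541), the glucosylceramidase gba, with 37.5, 36.6 and 36.5 TPM at 48 h, against 22.6, 11.5 and 19.1 TPM at 12 h (adjusted p = 0.0474), and the sulfatase ids, at 0.91 log2 units (adjusted p = 0.0415). The call of scarb2 held with every library left out. The 3 features of that description together averaged 92.9 ± 8.56 TPM at 48 h and 58.7 ± 7.80 TPM at 12 h (SD, n = 3 each), with a call (log2 fold change 0.66, adjusted p = 0.0262). Of 40 complement and coagulation genes 2 rose, c1qc and the complement inhibitor cd59, with 639, 546 and 484 TPM at 48 h, against 382, 242 and 299.9 TPM at 12 h (adjusted p = 0.0488), while a feature with the factor H symbol (cfh), described as complement factor H-related protein 1, had 1.11, 0.61 and 0.54 TPM at 48 h, against 5.34, 12.4 and 13.5 TPM at 12 h. For cfh the log2 fold change was -2.63 ± 0.58 (SE) and the adjusted p 0.0550.

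Of 58 cell cycle genes 1 rose and none fell, against 2.02% and 0.854% of all symbols. The gene that rose, the kinase wee1, which delays entry into mitosis, had 21.9, 16.1 and 21.1 TPM at 48 h, against 11.8, 8.43 and 9.42 TPM at 12 h. For wee1 the log2 fold change was 0.93 ± 0.18 (SE) and the adjusted p 0.0394. The median was 1.06 (0.90 after quantile normalization). Estimates were above 0 in 52 of 58 genes, against 68.4% of all symbols. Further, 46 genes had 48 h libraries entirely above the 12 h libraries against 29.9% of all symbols, and 43 were higher and none lower at an unadjusted p under 0.05, against 21.6% and 7.43%. A feature with the symbol of the mitotic ubiquitin-conjugating enzyme ube2c, whose protein description is instead phosphorylated CTD-interacting factor 1, had 130.0, 119.6 and 119.6 TPM at 48 h, against 69.2, 30.1 and 51.6 TPM at 12 h (log2 fold change 1.35 ± 0.31 SE, adjusted p = 0.0615), and the cytokinesis protein anln had 54.8, 59.7 and 58.1 TPM at 48 h, against 31.7, 12.6 and 24.3 TPM at 12 h. For anln the log2 fold change was 1.39 ± 0.31 (SE) and the adjusted p 0.0559. The 48 h libraries were alike, and the 12 h libraries ranged from library 2, the lowest, to library 1. The summed level was 2111 to 2172 TPM in the 48 h libraries and 766 to 1490.0 TPM in the 12 h libraries, and 874 to 1828 TPM in the 0 h libraries. Without 0 h library 3, whose level was above that of the other 0 h libraries, 26 of the 58 genes rose. Without 12 h library 1, 3 rose, and with any other library left out alone none did.

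Of 50 DNA replication genes none was called by limma, and 48 estimates were above 0 against 68.4% of all symbols. At an unadjusted p under 0.05, 25 were higher and none lower, against 21.6% and 7.43% of all symbols. The median was 0.65, and 12 rose without 0 h library 3. The nucleotide enzyme dut had 148, 108 and 133 TPM at 48 h, against 80.4, 39.3 and 60.7 TPM at 12 h. For dut the log2 fold change was 1.14 ± 0.31 (SE) and the adjusted p 0.0892. Of 24 erythroid markers 1 rose, against 2.02% of all symbols. It was the ammonium transporter rhag of the red cell membrane, with 74.3, 67.7 and 68.0 TPM at 48 h, against 19.6, 23.4 and 22.8 TPM at 12 h. For rhag the log2 fold change was 1.64 ± 0.32 (SE) and the adjusted p 0.0415. The summed erythroid markers were 4836 to 18315 TPM in the 48 h libraries and 11206 to 12088 TPM in the 12 h libraries, and 20460.0 to 72592 TPM in the 0 h libraries, so the 48 h range enclosed the 12 h range. The blood-cell transcription factor tal1 had 17.8, 17.1 and 16.3 TPM at 48 h, against 6.68, 6.26 and 11.4 TPM at 12 h. For tal1 the log2 fold change was 1.03 ± 0.24 (SE) and the adjusted p 0.0644. Whether the cell makeup of the samples set these differences was not tested.

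Apoptosis genes gave 2 falls among 27, against 0.854% of all symbols that fell. Caspase-8 (casp8), which starts death receptor signalling, had 58.4, 84.2 and 92.6 TPM at 48 h, against 173, 234 and 208 TPM at 12 h (log2 fold change -1.39 ± 0.21 SE, adjusted p = 0.0186), and the cell cycle inhibitor p21 (cdkn1a) had 15.5, 17.01 and 16.5 TPM at 48 h, against 24.8, 42.6 and 34.6 TPM at 12 h. For cdkn1a the log2 fold change was -0.98 ± 0.19 (SE) and the adjusted p 0.0391. The lists without any call were 13 of 36. Among those not given above, the heat shock and unfolded protein response list had 36 genes with 1 higher and 9 lower at an unadjusted p under 0.05, and a co-chaperone feature with the symbol dnaja1, described as dnaJ homolog subfamily A member 4, had 28.9, 27.03 and 26.7 TPM at 48 h, against 37.1, 104 and 74.0 TPM at 12 h. For dnaja1 the log2 fold change was -1.23 ± 0.30 (SE) and the adjusted p 0.0685. Ribosome biogenesis had 59 genes with none higher and 12 lower, against 21.6% and 7.43% of all symbols at that p. Its estimates were below 0 in 43 genes, against 31.6% of all symbols. The assembly factor tsr1 had 13.02, 13.5 and 11.9 TPM at 48 h, against 19.4, 21.8 and 19.3 TPM at 12 h. For tsr1 the log2 fold change was -0.62 ± 0.14 (SE) and the adjusted p 0.0600. Protein export and glycosylation in the endoplasmic reticulum had 34 genes with 2 higher and 1 lower. Cytosolic ribosomal proteins had 63 genes with 1 higher and none lower, and oxidative phosphorylation had 71 genes with 5 higher and 2 lower, all at an unadjusted p under 0.05. Their medians lay between -0.17 and 0.13, apart from -0.20 for heat shock.

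**Figure D5:**
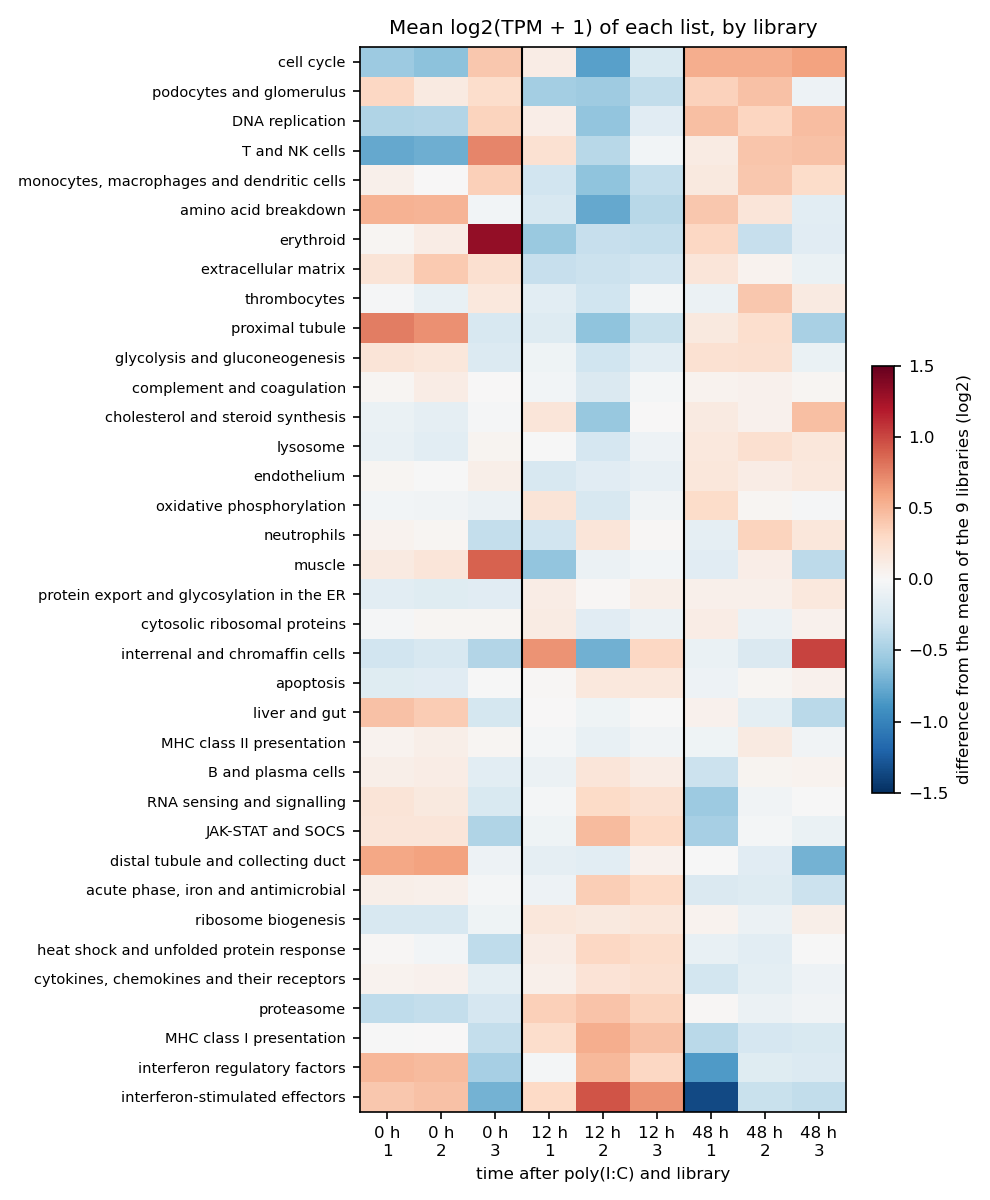
Mean log2(TPM + 1) of the measured members of 36 gene lists (rows, in the order of the plot of list members) in each of the 9 libraries (columns, by time after poly(I:C)), as the difference from the mean of the 9 libraries on a colour scale from blue (lower) to red (higher). The interferon-stimulated effectors are lowest in 48 h library 1 and highest in 12 h library 2, and 0 h library 3 differs from the other 0 h libraries in many rows.

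The 34 features still called without 12 h library 3 are the part of the comparison that does not rest on it. By name, picked once their values were known, they include falls of il13ra2 at -3.85 (adjusted p = 0.0264), the endonuclease domain-containing 1 feature at -4.38 (adjusted p = 0.0312), galectin-4 (lgals4) at -2.75 (adjusted p = 0.0477), endothelial lipase (lipg) at -2.64 (adjusted p = 0.0440), and an atg16l1 feature of autophagy at -1.68 (adjusted p = 0.0312), all in log2 units in that smaller fit. The rises include vim at 3.38 (adjusted p = 0.0264), cxcr2 at 2.20 (adjusted p = 0.0390), receptor-type tyrosine-protein phosphatase F at 2.65 (adjusted p = 0.0251), scarb2 at 1.30 (adjusted p = 0.0499), the chloride channel ano1 at 2.36 (adjusted p = 0.0312), a feature of the haematopoietic repressor gfi1 at 1.95 (adjusted p = 0.0380) and beta-arrestin-2 (arrb2) at 2.45 (adjusted p = 0.0380). Galectin-4 (lgals4) had 22.1, 8.65 and 11.5 TPM at 48 h, against 119, 73.0 and 93.2 TPM at 12 h with all libraries, and ano1 had 12.7, 7.45 and 9.26 TPM at 48 h, against 1.35, 0.80 and 1.72 TPM at 12 h. Of the 67 named features called with all libraries, 6 were called in each of the 9 fits without 1 library: il13ra2, the endonuclease domain-containing 1 feature, vim, receptor-type tyrosine-protein phosphatase F, cxcr2 and scarb2. Leaving 12 h library 3 out also left 2 libraries at that time, whose spread in the pooled estimate is assumed to be like that of the other groups. These calls also rest on the spread of the 0 h libraries. With the 0 h libraries left out as well, 3 of the 67 named calls remained, and 7 of all 763 calls.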

How the data were processed

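Total RNA of kidney was sequenced on standard Illumina libraries, per the labels' protocols. The aligner, assembler and quantifier are not given in the sources used here. The authors deposited 1 table of TPM values for 46444 assembled features, whose header does not name the unit. It was taken as TPM because the columns total 993873 to 996068 and low values step with feature length. On short features of 1 transcript, 90.9% to 96.7% of low values lay within 0.1 of a whole read. The size of 1 read was fitted per library to make that share largest, so the share is no independent check. The smallest maximum of a feature was 2.01 TPM. All 9 value columns matched a sample label.

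Features reaching 1 TPM in 3 or more libraries were fitted with limma 3.58.1 in R 4.3.3 on log2(TPM + 1), with 1 coefficient per time over all 9 libraries and eBayes with trend and robust options. The contrast was 48 h minus 12 h, two-sided, called at a Benjamini-Hochberg adjusted p under 0.05 over all 45473 features. The pseudocount of 1 understates changes of low features. The plan's count test was not used, since the table holds no counts. The fit was tested on simulated data.

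A symbol was given to features with a fish match from the protein description, otherwise from the Swiss-Prot name in the table, so it can stand for a paralogue, and where the description of a named feature names another protein both are given. Before naming and summing, prefixes such as PREDICTED and the endings partial, isoform number, precursor and -like were removed from descriptions. Features of 1 description can therefore include -like proteins. Assembled fragments of 1 gene can share reads. Members, lists and tests were chosen with earlier results of these data known. Genes were named by a rule: the 12 largest rises and the 12 largest falls among called features whose times do not overlap, whose higher time averages 5 TPM or more and whose fish protein description is informative, 1 feature per description, and, per list, the 3 members of lowest adjusted p (4 where a list had 5 or more calls). Any other gene is named either as one of the remaining calls of a list or as picked once its values were known. Pathways are the KEGG entries of the table, without disease maps. Alternatives were quantile normalization, limma without the trend and robust options, other filters and pseudocount, only the 12 h and 48 h libraries, the replicate number as a block, stricter thresholds, TPM summed by description, and each library left out.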

Additional observations from a re-analysis of the deposited data

How the results depend on the processing

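With each library left out in turn, the features called higher at 48 h numbered 19 to 1665 and those lower 15 to 784. Counts fell to 273 higher and 165 lower with 0 h replicates 1 and 2 averaged into 1, to 286 and 172 without limma's trend and robust options, to 18 and 17 at an adjusted p under 0.01, and to 3 and 7 with only the 12 h and 48 h libraries and 12 h replicate 3 left out as well. They increased to 934 and 430 with a filter of 5 TPM, and to 1089 and 470 with features of a fish match only, where fewer features were tested. Summing TPM by description gave 957 higher and quantile normalization gave 264 higher. No filter, a pseudocount of 0.1, only the 12 h and 48 h libraries, and a fold change of at least 1 log2 unit moved neither count by more than 1.5 times. Similar counts did not mean the same calls. With only the 12 h and 48 h libraries, 658 features were called in either direction. Of the 763 called with all 9 libraries, 455 (59.6%) were among them. The averaging, the fish-match fit and the smallest fit were added after seeing the data. The cause of the differences in calls between left-out libraries was not tested. With the replicate number as a block, 167 features were called higher and 118 lower. The deviations of same-numbered 48 h and 12 h libraries correlated at 0.373, 0.217 and 0.0619. For 48 h libraries 1 and 2 the same-numbered 12 h library correlated best, while 48 h library 3 correlated better with 12 h library 2, at 0.241. These values cannot settle whether the replicate numbers pair the libraries. Among 125 named features under all alternatives, 1996 values kept direction and side of the threshold, 604 lost the call, 144 gained one, and 1 reversed: receptor-type tyrosine-protein phosphatase F at -0.93 when summed by description. On features near 250 nt, levels under 1 TPM rest on few reads. Changes of features that short and that low at both times were not resolved.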
